A study of Homo sapiens with 10 samples.

Results

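The E2F and retinoblastoma family of H1 human embryonic stem cells was examined across the knockdown of 4 chromatin and transcription factor genes. The 10 genes are the E2F transcription factor genes E2F1, E2F2, E2F3, E2F4, E2F5, E2F7 and E2F8, and RB1, RBL1 and RBL2, which encode the retinoblastoma (pocket) proteins RB, p107 and p130. They were chosen by name as rows of the table of single libraries, and all 10 were found among its 14785 rows. E2F6, a target of the study, is not counted among them. RNA was sequenced from H1 cells, an established line labelled as wild type, that received packaged virus carrying a short hairpin RNA (shRNA) and were then selected with puromycin. The hairpins were directed against SMARCA4 (shSMARCA4), MAFK (shMAFK), E2F6 (shE2F6) or KDM1A (shKDM1A), or against luciferase (shLUC), the control, so the control cells also went through infection and selection. Each of the 5 groups had 2 libraries, described as biological duplicates of this single line, and p-values measure only the spread between such duplicates.

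E2F factors bind DNA at genes for S phase entry and replication. E2F1, E2F2 and E2F3 activate those genes once cyclin-dependent kinases (CDKs) have phosphorylated RB, E2F4 and E2F5 repress them together with p107 or p130, and E2F7 and E2F8 repress them without any pocket protein. Embryonic stem cells have a short G1 phase and are known for keeping pocket proteins highly phosphorylated, and E2F6 is a further repressor that works without pocket proteins through a variant Polycomb complex.

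Values are normalized tag counts, whole numbers whose totals the normalization had made nearly equal (22836548 to 22855295 per library), so the read depth is unknown. Replicates differed by an SD of 0.27 on the log2 scale in shLUC over all rows and of 0.53 in shKDM1A, the widest pair; over the 10 genes the SD was 0.16 in shLUC and 0.30 in shKDM1A. Of the 4 targets, SMARCA4 fell in its knockdown, to 0.127 of the shLUC mean (log2 change -2.98, adjusted p 8.55e-05 by limma), and the others did not pass. KDM1A was at 3290 and 1879 in shKDM1A against 6344 and 5925 in shLUC, and MAFK at 82 and 216 in shMAFK against 212 and 288 (adjusted p 0.132 and 0.572 by limma), so the MAFK libraries overlapped. E2F6 was at 336 and 304 in shE2F6 against 491 and 553 in shLUC, a log2 change of -0.70 (SE 0.19, adjusted p 0.774 by limma). Of 12 pluripotent stem cell markers, 12 were in the table. Their sum was 191045 and 200406 in shLUC, 163987 and 186604 in shSMARCA4 and 182566 to 287978 elsewhere. The highest sum, in shKDM1A replicate 1, held POU5F1 at 148866, the top value of the library, shared by 10 rows. These markers did not move together in shSMARCA4. NANOG lay above both controls there (4613 and 3699 against 2512 and 2639). SOX2, LIN28A, TDGF1, SALL4 and PODXL lay below both, and the rest overlapped. Mesendoderm markers (3 of 9 in the table) summed to 38 and 50 in shLUC, 1026 and 5031 in shSMARCA4 and at most 62 elsewhere, with EOMES and FOXA2 at 0 in some libraries outside shSMARCA4 and shLUC. Neuroectoderm markers (3 of 6) summed to 6069 and 7026 in shLUC and 4498 to 10984 elsewhere. In shSMARCA4, ZIC1 was at 462 and 1004 against 95 and 149 in shLUC, OTX2 at 602 and 326 against 674 and 734, and NES overlapped. The trophoblast list had KRT7 alone (1 of 6), at 218 and 296 in shLUC, 30 and 44 in shSMARCA4 and 125 to 360 elsewhere. Fibroblast markers (3 of 6) summed to 14147 and 15544 in shLUC, 5588 and 6737 in shSMARCA4 and up to 27610 in shKDM1A replicate 1. In shSMARCA4, COL1A1 and THY1 lay below both controls, and COL1A2 overlapped them (2483 and 2794 against 2740 and 3262). In shKDM1A replicate 1, COL1A1 (8374) and COL1A2 (13159) exceeded both controls, while THY1 (6077) lay below its controls (8852 and 9056). The part of these shifts in the values below was not tested, and in bulk RNA fewer cells of a type and less RNA per cell cannot be told apart.

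None of the 10 genes passed the threshold in any knockdown against shLUC. Each test was limma's on log2(value + 1), with p-values adjusted by Benjamini and Hochberg's method across the whole table and a threshold of 0.05. In shSMARCA4 0 of 10 genes were called against 4.18% of all rows, in shMAFK 0 of 10 against 0.0135%, in shE2F6 0 of 10 against 0% and in shKDM1A 0 of 10 against 0.0271%. At an unadjusted limma p under 0.05, 1 gene was found in each knockdown: RB1 in shSMARCA4 (16.3% of all rows), RBL2 in shMAFK (8.77%), E2F2 in shE2F6 (5.09%) and E2F8 in shKDM1A (11.5%). The knockdown pair lay entirely above or below the control pair for 5 of 10 genes in shSMARCA4 (51% of all rows), 3 in shMAFK (49.1%), 4 in shE2F6 (40.7%) and 5 in shKDM1A (38.8%). These shares lay near or below the background in shSMARCA4, shMAFK and shE2F6 and slightly above it in shKDM1A. There the 5 included E2F7, whose higher library (787) was just under the lower control (788). The median log2 change of the 10 genes was -0.03 in shKDM1A, 0.14 in shE2F6, 0.04 in shMAFK and 0.12 in shSMARCA4, where the medians over all rows were -0.02, -0.0034, -0.0042 and 0.0068.

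How large a change these data leave room for is given by the 95% intervals of the 40 changes. Of these, 38 lay inside a 2-fold change in both directions, and the other 2 belonged to E2F2, reaching 1.08 in shE2F6 and 1.02 in shKDM1A on the log2 scale. The median interval extended 0.42 to either side. When each group had its own weight, which widened the shKDM1A intervals to 0.57 and narrowed the rest, 37 of 40 lay inside, with E2F2, E2F5 and E2F8 in shKDM1A outside. Before adjustment, 4 of the 40 intervals excluded 0, those of the 4 genes with an unadjusted p under 0.05.

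**Figure D1:**
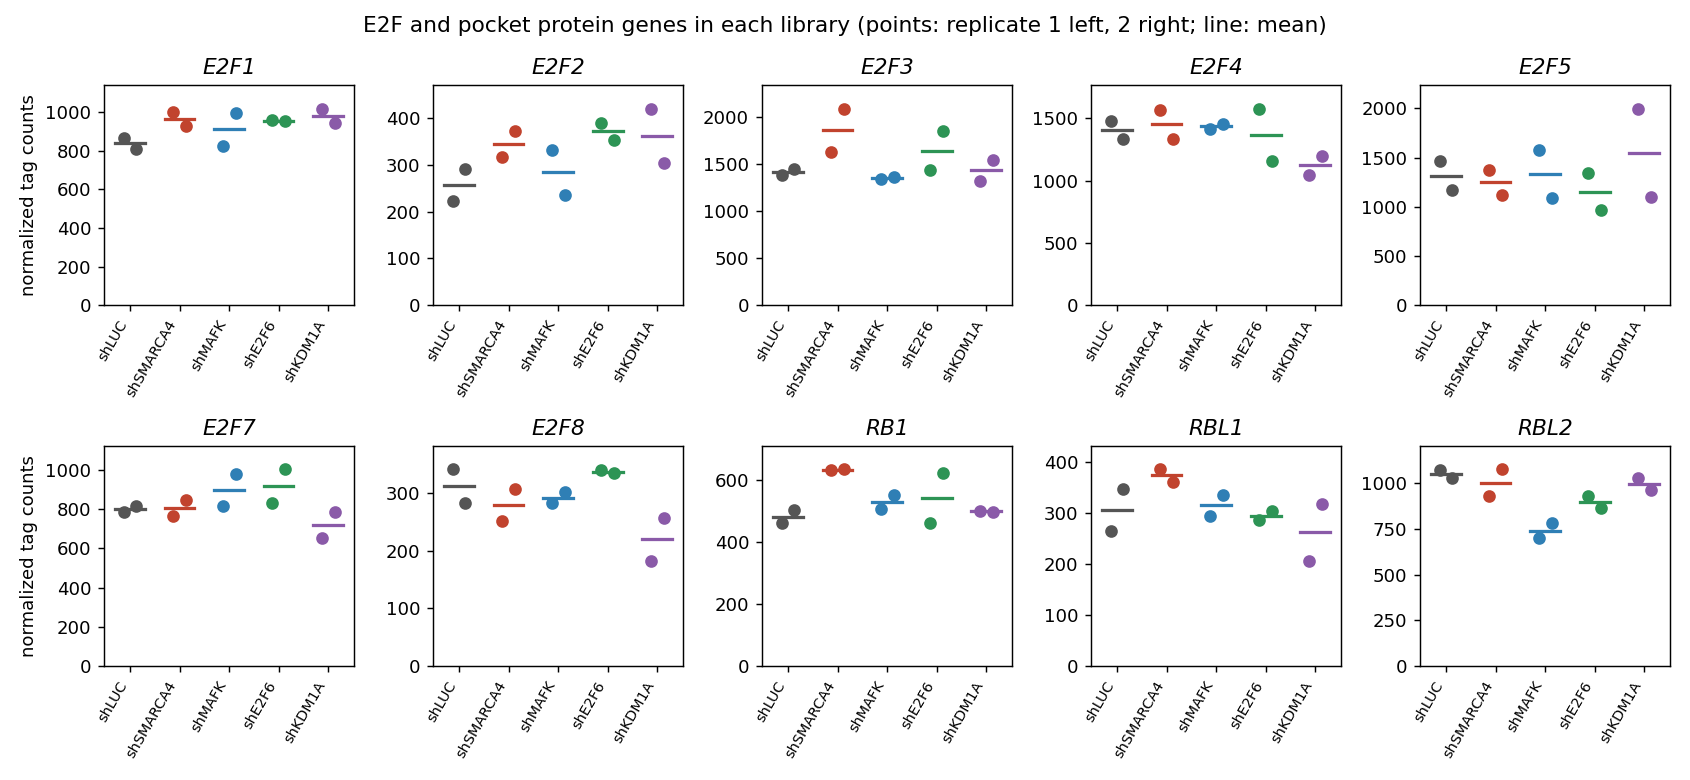
Normalized tag counts (y axis, from 0) of the 10 genes in each library, by group (x axis); points are single libraries and the line is the mean of 2. RBL2 is lowest in both shMAFK libraries (702 and 780), RB1 is highest in both shSMARCA4 libraries (632 and 634), and the shKDM1A pair is far apart for E2F5 (1998 and 1100).

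Of the activator genes, E2F1 and E2F2 lay above both controls in 3 knockdowns each and E2F3 in 1, without passing the test. Separation from the controls, in either direction, was found for 38.8% to 51% of all rows in those knockdowns. E2F1 is known as an activator that also controls its own gene (ENSG00000101412, chromosome 20, 33675683 to 33686404, minus strand; all gene positions are from GENCODE release 29 on GRCh38). It had 868 and 808 normalized tag counts in shLUC, 1001 and 930 in shSMARCA4, 1018 and 942 in shKDM1A, 960 and 951 in shE2F6 and 824 and 995 in shMAFK. Both controls lay below every library of shSMARCA4, shE2F6 and shKDM1A, and the shMAFK pair overlapped them. The mean was 1.17-fold that of shLUC in shKDM1A, 1.15-fold in shSMARCA4 and 1.14-fold in shE2F6. Log2 changes were 0.23, 0.20 and 0.19 (SE 0.15 each), with limma adjusted p of 0.547, 0.60 and 1. Because these comparisons share the 2 control libraries, a low control value raises all of them together.

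E2F2 (ENSG00000007968, chromosome 1, 23506430 to 23531220, minus strand), an activator close to E2F1 in sequence, showed the largest differences of the activators. Its control libraries held 222 and 290, against 390 and 353 in shE2F6, 420 and 304 in shKDM1A, 316 and 373 in shSMARCA4 and 331 and 236 in shMAFK. All 6 libraries of shE2F6, shKDM1A and shSMARCA4 lay above both controls. The mean in shE2F6 was 372 ± 26.2 (SD, n = 2) against 256 ± 48.1 in shLUC, a 1.45-fold ratio and a log2 change of 0.55 (SE 0.24, unadjusted p 0.045, limma adjusted p 0.969). In shKDM1A the log2 change was 0.49 (limma adjusted p 0.448) and in shSMARCA4 0.43 (limma adjusted p 0.427). Leaving out single libraries moved the shE2F6 value between 0.35 and 0.74.

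E2F3 (ENSG00000112242, chromosome 6, 20401906 to 20493715, plus strand) encodes an activator made in long and short forms from separate start sites. Its libraries held 1380 and 1446 in shLUC, 1627 and 2090 in shSMARCA4, 1324 and 1547 in shKDM1A, 1436 and 1848 in shE2F6 and 1346 and 1357 in shMAFK. Both shSMARCA4 libraries exceeded both controls, and the shMAFK libraries lay just below them. The mean in shSMARCA4 was 1.32-fold that of shLUC, with a log2 change of 0.38 (SE 0.19, adjusted p 0.364 by limma). The table does not separate the forms.

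The promoters of these activator genes and of RBL1 hold matches to the E2F motif, and the letters are shown because E2F6, 1 of the knocked down factors, belongs to the family that binds such sites. Windows from RefSeq (GRCh38.p14) reach from 250 bases before to 50 after an annotated start; 8 of the 10 genes had such an entry, in 10 windows, and E2F5 and E2F8 were not matched. Searched on both strands were the 4 forms TTTCCCGC, TTTCGCGC, TTTGCCGC and TTTGGCGC. At least 1 form was present for 4 genes, against 3.31% of 35116 windows in all and 4.79% of the 15441 windows of genes in the expression table. E2F1 and RBL1 each held 2 matches, and 0.145% of all windows held 2 or more. The last 100 bases before the start are given 5′ to 3′ on the gene's strand, with the matches in capitals.
E2F1 (chr20:33686386-33686485, minus strand): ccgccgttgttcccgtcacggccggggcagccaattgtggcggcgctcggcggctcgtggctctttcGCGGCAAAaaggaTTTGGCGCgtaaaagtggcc
E2F2 (chr1:23531234-23531333, minus strand): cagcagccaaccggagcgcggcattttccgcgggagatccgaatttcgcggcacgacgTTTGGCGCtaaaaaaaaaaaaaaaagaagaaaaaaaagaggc
E2F3 (chr6:20401779-20401878, plus strand): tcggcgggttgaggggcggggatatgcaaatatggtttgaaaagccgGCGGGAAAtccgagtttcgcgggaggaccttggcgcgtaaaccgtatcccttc
RBL1 (chr20:37095998-37096097, minus strand): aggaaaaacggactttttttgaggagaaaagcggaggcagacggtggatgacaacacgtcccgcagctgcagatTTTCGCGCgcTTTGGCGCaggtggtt

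All 6 matches lay within 53 bases before the start: in E2F1 at -33 to -26 and -20 to -13, in E2F2 at -42 to -35, in E2F3 at -53 to -46 and in RBL1 at -26 to -19 and -16 to -9. GCGGCAAA in E2F1 and GCGGGAAA in E2F3 are forms read on the opposite strand. A second E2F3 window, at a start 1708 bases inside the gene, held no match, nor did the windows of E2F4, E2F7, RBL2 or RB1, and the RB1 entry lies 172724 bases inside the gene and not at its first exon. The CHR element TTTGAA, a cell cycle motif that shares no base with the matches above, was found in E2F3 and RBL2 and in 15.2% of all windows. For the 4 genes with a match, the shE2F6 log2 changes were 0.19 (E2F1), 0.55 (E2F2), 0.21 (E2F3) and -0.04 (RBL1), none past the threshold. For the genes with windows but no match they were -0.05 (E2F4), 0.19 (E2F7), 0.16 (RB1) and -0.23 (RBL2). A match of letters does not show binding.

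**Figure D2:**
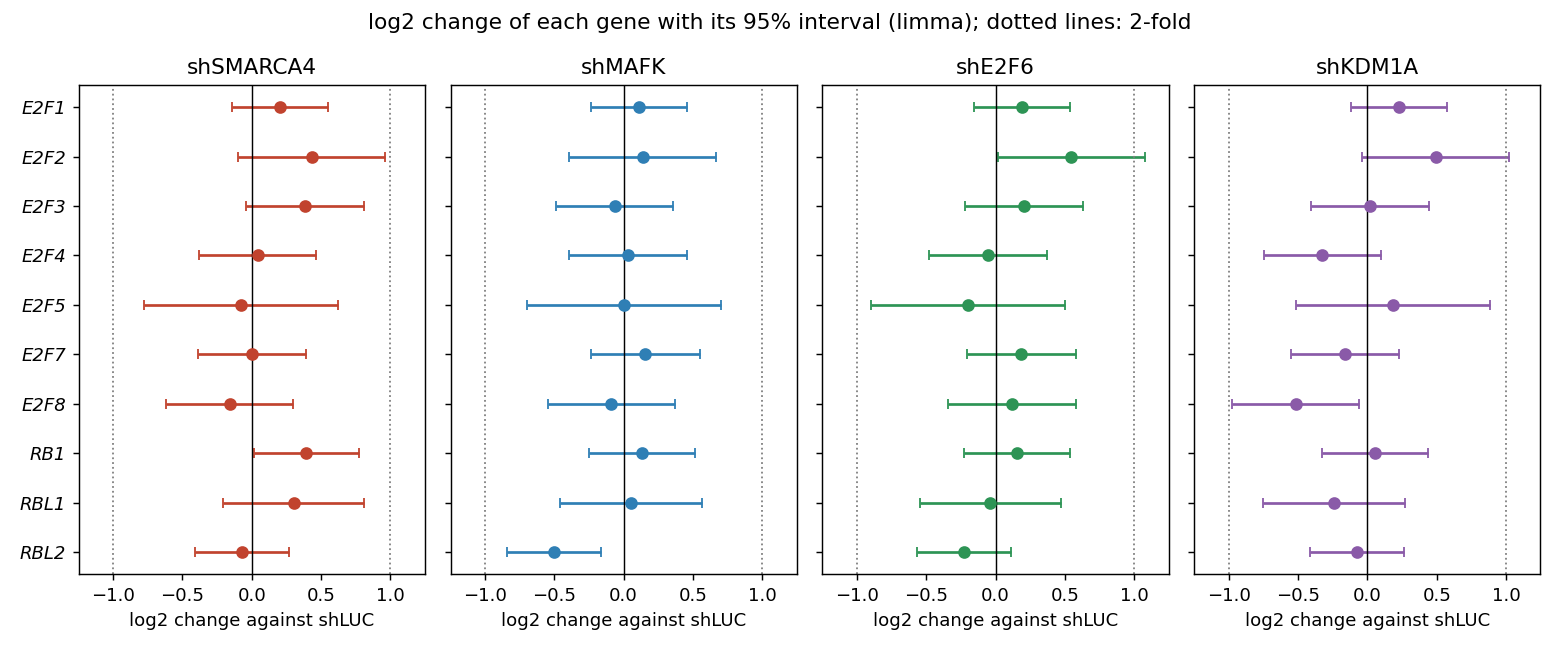
Log2 change against shLUC (x axis) of each gene (y axis) in the 4 knockdowns, with its 95% interval from limma; dotted lines mark a 2-fold change. Most intervals include 0, and E2F2 in shE2F6 and shKDM1A reaches past the 2-fold line.

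The pocket-dependent repressor genes gave no gene past the threshold either. E2F4 (ENSG00000205250, chromosome 16, 67192169 to 67198918, plus strand), the main E2F partner of p130 in resting cells, had 1479 and 1335 in shLUC, 1572 and 1334 in shSMARCA4, 1046 and 1200 in shKDM1A, 1580 and 1160 in shE2F6 and 1418 and 1454 in shMAFK. Only the shKDM1A pair was separate from the controls, on the lower side. Its mean was 0.798 of that of shLUC, a log2 change of -0.33 (SE 0.19, adjusted p 0.496 by limma).

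E2F5 (ENSG00000133740, chromosome 8, 85177225 to 85217158, plus strand), which pairs with p107 and p130, had wide distances between replicates. It held 1464 and 1166 in shLUC, 1370 and 1124 in shSMARCA4, 1998 and 1100 in shKDM1A, 1338 and 969 in shE2F6 and 1572 and 1087 in shMAFK. Replicate 1 was the higher library in all 5 groups, an order found for 6.12% of rows; the reverse order held for E2F3 and E2F7 and for 5.79% of rows. No knockdown was separate from the controls, and the coefficient of variation over the 10 libraries, 23.1%, was the highest of the family. Log2 changes ran from -0.20 in shE2F6 to 0.18 in shKDM1A (SE 0.31), with the latter at -0.25 without shKDM1A replicate 1. Of its exon bases, 16.3% also belong to C8orf59 on the opposite strand, and reads of the 2 genes cannot be told apart where counting ignored strand. C8orf59 ran from 985 to 1164 in shLUC, 564 to 846 in shKDM1A and 622 to 1004 elsewhere.

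Among the atypical repressors, E2F7 (ENSG00000165891, chromosome 12, 77021247 to 77065580, minus strand) had 788 and 819 in shLUC, 766 and 846 in shSMARCA4, 654 and 787 in shKDM1A, 834 and 1004 in shE2F6 and 818 and 982 in shMAFK. The shE2F6 pair lay above the controls and the shKDM1A pair just below, by log2 changes of 0.19 and -0.16 (SE 0.17, limma adjusted p 1 and 0.692). E2F8 (ENSG00000129173, chromosome 11, 19224063 to 19241620, minus strand), its closest relative, had 341 and 282 in shLUC, 252 and 306 in shSMARCA4, 182 and 257 in shKDM1A, 340 and 334 in shE2F6 and 282 and 301 in shMAFK. Both shKDM1A libraries were below both controls. The mean was 220 ± 53 (SD, n = 2) against 312 ± 41.7 in shLUC, 0.705 of the control, a log2 change of -0.52 (SE 0.20, unadjusted p 0.0311, limma adjusted p 0.407). It was -0.77 without shKDM1A replicate 2, where limma gave an adjusted p of 0.0248 but also called 21.9% of all rows, and -0.27 without shKDM1A replicate 1.

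The pocket protein genes gave no call, and the largest change was in shSMARCA4 for RB1 and RBL1 and in shMAFK for RBL2. RB1 (ENSG00000139687, chromosome 13, 48303726 to 48599436, plus strand), the tumour suppressor that restrains the activator E2Fs, held 461 and 502 in shLUC and 632 and 634 in shSMARCA4. It had 501 and 497 in shKDM1A, 462 and 622 in shE2F6 and 506 and 550 in shMAFK. Every shSMARCA4 value exceeded every other value of the gene, with 622 in shE2F6 replicate 2 the nearest. The mean of 633 ± 1.41 (SD, n = 2) was 1.31-fold the 482 ± 29 of shLUC, a log2 change of 0.40 (SE 0.17, unadjusted p 0.0439, limma adjusted p 0.287). Leaving out single libraries moved it only between 0.33 and 0.46.

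RBL1 (ENSG00000080839, chromosome 20, 36996349 to 37095995, minus strand) encodes p107, which is itself made under E2F control. Values were 264 and 347 in shLUC, 386 and 362 in shSMARCA4, 206 and 318 in shKDM1A, 286 and 304 in shE2F6 and 294 and 336 in shMAFK. The shSMARCA4 pair was above both controls by a 1.22-fold ratio (log2 change 0.30, SE 0.23, adjusted p 0.597 by limma), and in the other knockdowns the libraries overlapped the controls.

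RBL2 (ENSG00000103479, chromosome 16, 53433977 to 53491649, plus strand) encodes p130, the pocket protein that is most abundant in resting cells and a core part of the DREAM repressor complex. It held 1070 and 1026 in shLUC, 702 and 780 in shMAFK, 932 and 862 in shE2F6, 928 and 1076 in shSMARCA4 and 1029 and 962 in shKDM1A. The 2 shMAFK values were the lowest of the 10, and the shE2F6 pair also lay below the controls. In shMAFK the mean was 741 ± 55.2 (SD, n = 2) against 1048 ± 31.1, 0.707 of the control. The log2 change of -0.50 (SE 0.15, unadjusted p 0.00866) had a limma adjusted p of 0.332, the smallest for the family in that knockdown. Without any 1 library it stayed between -0.58 and -0.43. With a weight for each group, limma gave an adjusted p of 0.0446 (SE 0.11), in a fit that called 3.29% of all rows. AKTIP, which shares 8.33% of the RBL2 exon bases on the opposite strand, had 447 and 456 in shMAFK against 406 and 436 in shLUC (log2 change 0.10, limma adjusted p 0.952). AC007342.6 shares 9.85% of them, also on the opposite strand, and had no row, so its level is unknown.

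Direct contrasts between knockdowns do not use the mean of the shared control, although the spread of its libraries enters the fit. The moderated F-test among the 4 knockdowns found 0 of 10 genes, against 6.64% of all rows; the smallest limma adjusted p was 0.227 for RBL2, followed by 0.243 for E2F8, and 0 genes had an unadjusted p under 0.05 (23.6% of all rows). In the 6 pairs, 0 of 60 tests passed, and 5 had an unadjusted limma p under 0.05. Of all rows, 7.76% were called for shSMARCA4 against shMAFK (21.3% at the unadjusted p), 3.55% against shE2F6 (15.6%) and 6.87% against shKDM1A (24%). The shares were 0.487% for shMAFK against shE2F6 (13.1%), 0.0406% for shMAFK against shKDM1A (13%) and 0.129% for shE2F6 against shKDM1A (15.2%). RBL2 was lower in shMAFK than in shSMARCA4 (log2 difference of shSMARCA4 minus shMAFK 0.43, SE 0.15, adjusted p 0.127 by limma) and than in shKDM1A (shMAFK minus shKDM1A -0.43, limma adjusted p 0.329). E2F8 differed most between shE2F6 and shKDM1A (0.64, SE 0.20, adjusted p 0.225 by limma), RBL1 between shSMARCA4 and shKDM1A (0.54, limma adjusted p 0.185) and E2F3 between shSMARCA4 and shMAFK (0.45, limma adjusted p 0.208). Without shKDM1A replicate 2, E2F8 and RBL1 passed in 4 of these tests and in the F-test, in fits that called 23.4% to 35.9% of all rows.

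To compare genes with each other, values were divided by the length of their merged exons. E2F4 had the highest level in shLUC, with 393 ± 28.4 normalized tag counts per kb (SD, n = 2), followed by E2F1 with 335 ± 17, E2F3 with 274 ± 9.04 and E2F5 with 222 ± 35.5. RBL2 had 143 ± 4.25 and E2F7 127 ± 3.48. The lowest levels were those of E2F8 (75.2 ± 10.1), RB1 (74.6 ± 4.49), RBL1 (51.3 ± 9.86) and E2F2 (46.9 ± 8.81). Libraries of E2F8 and RB1 overlapped, as did those of RBL1 and E2F2, and all other neighbours were separate. In shLUC, E2F1 had the highest level per kb of the activator genes and RBL2 of the pocket protein genes. The libraries of E2F1 (372 and 400) and E2F3 (315 and 405) overlapped in shSMARCA4. Because the counter and normalization are not given, whether the values scale with length is unknown, and the order depends on it. With the longest annotated transcript as the length, RB1 (100 per kb) lay above E2F8 (88.5).

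**Figure D3:**
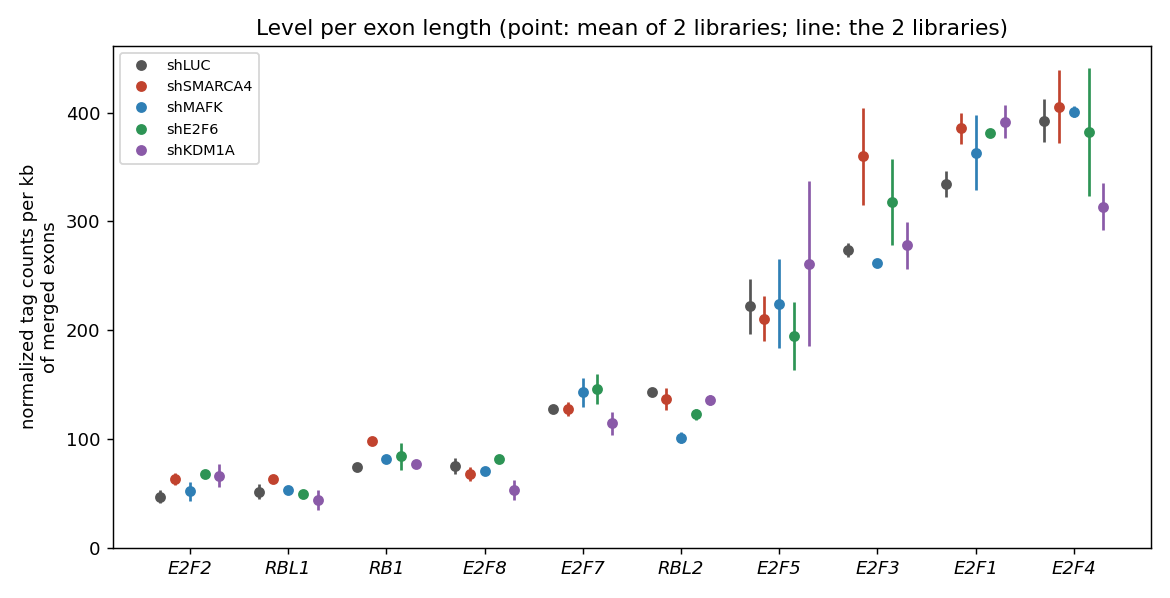
Normalized tag counts per kb of merged exons (y axis, from 0) of the 10 genes, ordered by their shLUC mean; points are means of 2 libraries and vertical lines run from the lower to the higher library. E2F4, E2F1 and E2F3 are at 256 or more in every library, while E2F2, RBL1, RB1 and E2F8 are at 98.3 or less in every library.

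Across the 10 libraries the genes varied little, with a median coefficient of variation of 14.8% against 17.2% for the 9297 rows with means from 200 to 2000. E2F1 was the steadiest, at 7.89%, with values from 808 to 1018. Pearson correlations of log2 values among the 10 genes, a description over 10 libraries that share groups and normalization, had a median of 0.04 over 45 pairs and were positive in 24. The highest was that of E2F3 with RB1 (0.78), followed by E2F7 with E2F8 (0.74), the atypical pair. The lowest was that of E2F5 with E2F7 (-0.82). The library shKDM1A replicate 1, of the widest pair, held the lowest value of E2F3, E2F4, E2F7, E2F8 and RBL1. It also held the highest value of E2F1, E2F2 and E2F5. The part of this library in these correlations and in the similar profiles below was not tested.

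Genes with the most similar profile were then named for each member, out of 12605 genes with a mean of at least 100; in so wide a search some high values arise in any case. E2F1 was most like AL132671.2 (r 0.859) and MCM10 (0.854), a replication initiation factor. E2F2 was most like TMEM98 (0.875) and MGAT4B (0.867), E2F3 like DICER1 (0.965) and KIF1B (0.962), and E2F4 like CNOT9 (0.958) and MRPL49 (0.945). E2F5 was most like RWDD4 (0.946) and KATNA1 (0.942), E2F7 like PIK3C2A (0.974) and ERGIC2 (0.944), and E2F8 like IRF2 (0.98) and TENT2 (0.968). For the pocket proteins these were ARID1B (0.92) and SBF2 (0.899) for RB1, ACTR2 (0.955) and LYSMD3 (0.951) for RBL1, and WIPI2 (0.919) and NUDCD3 (0.915) for RBL2.

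Other genes of the pathway were examined in 8 lists with 81 genes, of which 76 were in the table. CDK6 and MYBL2 rose in shSMARCA4, and 0 genes passed in shMAFK, shE2F6 or shKDM1A. With a weight for each group, 3 genes passed in shMAFK (CCND1, CDK6 and MCM5), in a fit that called 3.29% of all rows. In shSMARCA4 5 genes passed with these weights, where 1306 of the 14785 rows were called. Without weights, the 2 calls in shSMARCA4 are 2.63% of the 76 genes, against 4.18% of all rows. At an unadjusted limma p under 0.05, 8 genes were found in shKDM1A (10.5%, against 11.5% of all rows), 4 in shE2F6 (5.26%, against 5.09%), 8 in shMAFK (10.5%, against 8.77%) and 11 in shSMARCA4 (14.5%, against 16.3%), shares near those of all rows. In the F-test among the knockdowns 6 of the 76 passed (7.89%, against 6.64% of all rows). Median log2 changes were 0.01, 0.06, -0.03 and 0.15.

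CDK6 encodes a cyclin D partner that phosphorylates RB. Its control libraries held 430 and 522, and those of shSMARCA4 1440 and 1609, with 592 and 664 in shKDM1A, 500 and 632 in shE2F6 and 887 and 841 in shMAFK. The shSMARCA4 libraries were the highest and the shMAFK libraries next, all above the controls. The log2 change in shSMARCA4 was 1.68 (SE 0.18, adjusted p 0.00176 by limma), past the threshold in 20 of 20 alternative fits over more than 2 groups. That in shMAFK was 0.86 (limma adjusted p 0.144), and with group weights its limma adjusted p was 0.0118. CCND1 encodes cyclin D1, a partner of CDK6, and had 5846 and 7919 in shMAFK against 1998 and 2576 in the control, with 1572 to 3476 in the other knockdowns. Both shMAFK libraries were above all others, by a log2 change of 1.58 (SE 0.36, adjusted p 0.179 by limma). It passed with group weights (limma adjusted p 0.0118), in the F-test (limma adjusted p 0.0447) and between shSMARCA4 and shMAFK (-1.67, limma adjusted p 0.0253). Among the 9 cyclins and CDKs that act on pocket proteins, 1 rose, 0 fell and 8 did not pass in shSMARCA4, and 9 did not pass in each of the other knockdowns.

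MYBL2 encodes B-MYB, which joins the MuvB core to drive late cell cycle genes and is itself a classical E2F target. Its libraries held 5367 and 7313 in shSMARCA4 and 4390 and 6647 in shE2F6, above the 3314 and 3025 of shLUC, with 3583 and 3564 in shMAFK and 3150 and 3207 in shKDM1A. The log2 change in shSMARCA4 was 0.98 (SE 0.22, adjusted p 0.0405 by limma); the call held in 13 of 20 such fits and was lost without either library of shLUC, shSMARCA4 or shMAFK and without the mean-variance trend (limma adjusted p up to 0.271). In shE2F6 the change was 0.77 (limma adjusted p 0.797). Of 9 MuvB and DREAM genes 8 were in the table, and MYBL2 was the 1 that passed in shSMARCA4.

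The dimer partners TFDP1 and TFDP2, without which E2F1 to E2F6 bind DNA poorly, did not pass in any knockdown. TFDP1 had its lowest mean in shKDM1A, with libraries at 902 and 1269 against 1468 and 1644 in shLUC (log2 change -0.54, limma adjusted p 0.407). Only replicate 1 (902) of that pair lay below the shMAFK libraries, at 1192 and 1232. Of 7 CDK inhibitors 3 were in the table, and 0 passed. CDKN1A, which encodes p21, had 360 and 1170 in shMAFK against 235 and 148 in shLUC and 64 and 127 in shSMARCA4. Its shMAFK libraries lay above and its shSMARCA4 libraries below both controls, with log2 changes of 1.79 (SE 0.51, adjusted p 0.301 by limma) and -1.04 (adjusted p 0.368), and the distance within the shMAFK pair was wide. Between these knockdowns the difference passed, with shSMARCA4 minus shMAFK at -2.83 (adjusted p 0.0119 by limma).

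The lists of target genes and of E2F degradation genes gave no call against shLUC. MYBL2, also an E2F target, was counted above with the MuvB and DREAM genes. Of 30 G1/S genes under E2F control, 0 passed in any knockdown, while MCM5 and TYMS passed in the F-test among the knockdowns (limma adjusted p 0.0446 and 0.0442). That F-test called 6.64% of all rows, a share near that of this list. Against shLUC the list had median log2 changes of 0.08 in shKDM1A, 0.11 in shE2F6, 0.07 in shMAFK and 0.22 in shSMARCA4. An unadjusted limma p under 0.05 was found for 5 of them in shSMARCA4, all higher, a share of 16.7% against 16.3% of all rows. ATAD2, a chromatin ATPase, was at 1246 and 1330 against 737 and 880 in shLUC (log2 change 0.68, limma adjusted p 0.114). An E2F form was present in 19 of the 36 windows of this list (52.8%), a list made of known E2F targets. Of 15 G2/M genes repressed by DREAM, 0 passed, and at an unadjusted limma p under 0.05 there were also 0 in each knockdown; medians were -0.18 in shKDM1A, 0.02 in shE2F6, -0.15 in shMAFK and 0.04 in shSMARCA4. The largest change among them, TOP2A in shKDM1A (0.60, limma adjusted p 0.607, passing without shKDM1A replicate 2), had 41812 in replicate 1 and 12832 in replicate 2, against 10952 and 21314 in shLUC. Of 5 genes for E2F degradation, 0 passed, with FZR1 in shSMARCA4 at 1132 and 858 against 734 and 660 (log2 change 0.50, limma adjusted p 0.222). Of 5 apoptotic E2F targets, 0 passed against shLUC, with median log2 changes of -0.24 in shKDM1A, 0.16 in shE2F6, -0.22 in shMAFK and 0.32 in shSMARCA4.

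**Figure D4:**
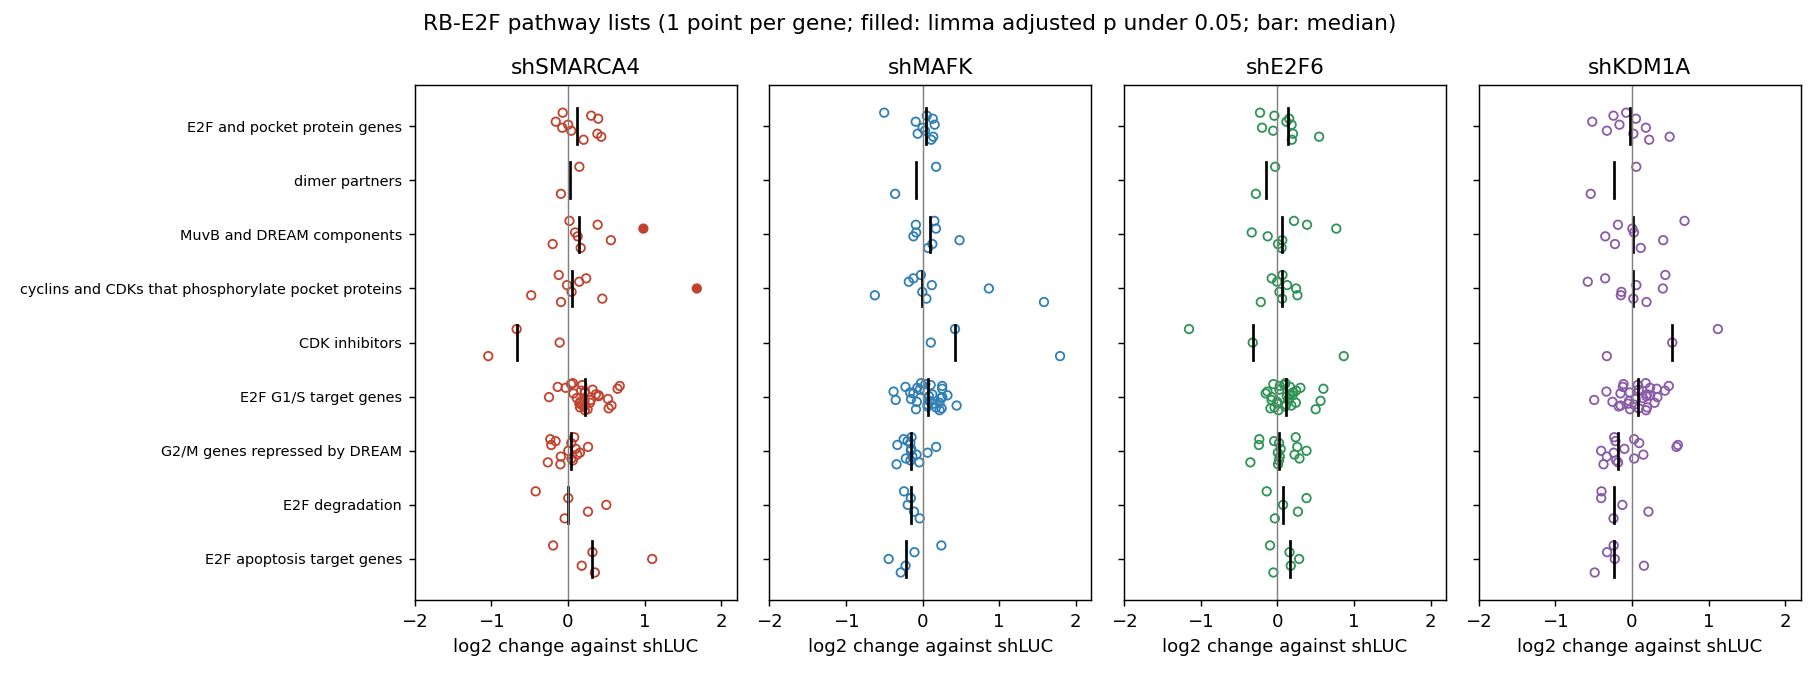
Log2 change against shLUC (x axis) of the 10 genes and of the 8 pathway lists (y axis) in the 4 knockdowns; each point is a gene, filled where the limma adjusted p is under 0.05, and the bar is the median. The filled points are CDK6 (1.68) and MYBL2 (0.98) in shSMARCA4, and CDKN1A in shMAFK is the open point farthest to the right (1.79).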

How the data were processed

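RNA-seq of 10 libraries was analysed from a table of scores, normalized tag counts that the authors deposited as whole numbers; per the submitters' processing notes STAR and STARsolo were used with the hg38 build. The counter, annotation and normalization are not given in the sources used here. The median was 594 in every library and 80.3% of ranks held the same value in all libraries, so total RNA differences are not seen. A deposited table of group means was not used. Rows with a mean of at least 10 (all 14785) were fitted as log2(value + 1) with limma 3.58.1 in R 4.3.3 (lmFit, eBayes with trend, two-sided), in 1 fit with 5 residual degrees of freedom; fold changes are on that scale. The script was tested on simulated data. An exact permutation of 2 against 2 libraries cannot give a p below 0.333. Exon lengths came from GENCODE release 29 and promoters from RefSeq GRCh38.p14, read with Python 3.11.15 and pandas 2.3.3; plots used matplotlib 3.10.9. Named genes were all 10 members, list genes past the threshold or with the largest change of their list, and the 2 most similar genes per member. One list gene that this rule names is not reported here. Members and lists were chosen with earlier results of these data known. Alternatives covered the pseudocount, filter, scaling, variance model, libraries in the fit, a replicate block, and leaving out each library.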

Additional observations from a re-analysis of the deposited data

How the results depend on the processing

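The count of called E2F and pocket protein genes stayed at 0 against shLUC in all alternatives but 2: it was 1 in shMAFK with group weights (RBL2), and from 0 to 1 in shKDM1A when single libraries were left out, with 1 (E2F8) without shKDM1A replicate 2. Without that library it was also 2 of the F-test and 4 of the direct contrasts, ranges of 0 to 2 and 0 to 4. In the same fits the calls over all rows moved as well. For shSMARCA4 they were 618 (1306 with group weights, 1162 without both shKDM1A libraries, 89 to 1159 without 1 library). For shMAFK they were 2 (487 with group weights, 34 without both shKDM1A libraries, 32 with only the groups compared, 5 with quantile normalization or no mean-variance trend, 0 to 37 without 1 library). For shE2F6 they were 0 (752 at an unadjusted limma p under 0.05, 21 with group weights, 5 without both shKDM1A libraries, 1 with only the groups compared, 0 to 5 without 1 library). For shKDM1A they were 4 (9 with no mean-variance trend, 2 with group weights, 1 with only the groups compared, 1 to 3235 without 1 library, the last without shKDM1A replicate 2). For the F-test they were 982 (1535 with group weights, 519 without shLUC, 278 to 5302 without 1 library), and for the direct contrasts 2785 (999 to 15397 without 1 library). With 1 library left in a group, its spread was taken from the other groups. Removing the filter could change nothing, because all 14785 rows already passed it. Scaling to equal medians gave the same calls over all rows, and the median was already 594 in every library. Quantile normalization was a weak alternative, because 80.3% of ranks already held the same value in all libraries. Sign changes occurred only on leaving out single libraries, in 19 of 40 changes, none called: in shSMARCA4 for E2F4 (-0.075 to 0.16), E2F5 (-0.24 to 0.090), E2F7 (-0.069 to 0.075), RBL2 (-0.17 to 0.038); in shMAFK for E2F1 (-0.023 to 0.25), E2F2 (-0.10 to 0.38), E2F4 (-0.043 to 0.11), E2F5 (-0.27 to 0.27), E2F8 (-0.23 to 0.047), RBL1 (-0.14 to 0.25); in shE2F6 for E2F4 (-0.28 to 0.17), E2F5 (-0.43 to 0.034), E2F8 (-0.017 to 0.26), RB1 (-0.058 to 0.37), RBL1 (-0.23 to 0.16); in shKDM1A for E2F3 (-0.093 to 0.13), E2F5 (-0.25 to 0.61), RB1 (-0.0086 to 0.11), RBL1 (-0.55 to 0.071). Their cause was not tested. Replicate deviations correlated between groups from -0.05 to 0.34, above 0.1 in 2 of 10 pairs, so the numbers were not taken as pairs; with the replicate block 0 genes were called in each knockdown and the calls over all rows were 643, 1, 0 and 3.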
